A study of Homo sapiens with 6 samples.

Results

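Genes of the pluripotent state were followed in H1, an established line of human embryonic stem cells, as the cells left pluripotency for mesoderm, with and without SNAI1, a zinc-finger transcription factor of the epithelial-mesenchymal transition. The 10 genes POU5F1, NANOG, SOX2, DPPA2, DPPA4, LIN28A, ZFP42, PRDM14, DNMT3B and KLF4 were taken by symbol from the first column of the deposited tables, out of 37803 symbols listed once in both tables. RNA-seq of 6 libraries was deposited as FPKM, that is, fragments scaled by transcript length and by mapped fragments, in 2 tables that each hold 1 library of every group. WT cells (n = 2) carried no deletion, and the groups SNAI1_KO_1 (n = 2) and SNAI1_KO_2 (n = 2) carried a SNAI1 deletion. Every library came from day 2 of hematopoietic differentiation. The labels give the medium of all groups as activin A at 40 ng/ml with BMP4 at 50 ng/ml, whereas the methods of the study attach the same figures to the opposite factors. Which of these is right is not known. The leading number in the sample titles was taken as the group, and the labels do not say its meaning. For SNAI1 the study made 2 frameshift knockout lines by CRISPR/Cas9, to which the groups were not matched. Nothing in the labels says that the libraries came from separate cultures. The p-values thus measure the spread left between these libraries once the offset between the tables is removed, and this spread may be technical.

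In human embryonic stem cells POU5F1, NANOG and SOX2 encode transcription factors that bind many of the same enhancers, their own included, and hold the cells in the primed pluripotent state. The other genes act around this core. PRDM14, KLF4 and ZFP42 encode zinc-finger DNA-binding proteins, DPPA2 and DPPA4 encode partner proteins that bind chromatin, LIN28A encodes an RNA-binding protein that blocks maturation of let-7 microRNAs, and DNMT3B encodes a de novo DNA methyltransferase. When activin A and BMP4 induce mesoderm, SOX2 is lost early, whereas POU5F1 and NANOG persist into the primitive streak.

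The regulatory sequence next to the called genes was examined first for motifs of the factors concerned. RefSeq windows of 300 bases (GRCh38.p14), from 250 bases before to 50 after each gene's start, matched 7 of the 10 symbols. POU5F1, LIN28A and PRDM14 had no entry. The first 200 bases of 3 windows are printed 5′ to 3′ on the strand of the gene, NANOG and DPPA4 because both passed the test below and ZFP42 because it was the only window of the 7 with the E-box that SNAI1 binds. Capitals mark motif matches. Each stretch ends 51 bases before the start of its gene. That of NANOG lies at chr12:7789152-7789351 on the plus strand, DPPA4 at chr3:109337597-109337796 on the minus strand and ZFP42 at chr4:187995521-187995720 on the plus strand.
NANOG: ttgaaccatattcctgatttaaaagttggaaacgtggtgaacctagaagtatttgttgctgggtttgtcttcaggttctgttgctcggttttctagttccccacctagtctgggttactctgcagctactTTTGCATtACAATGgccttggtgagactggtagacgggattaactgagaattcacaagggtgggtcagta
DPPA4: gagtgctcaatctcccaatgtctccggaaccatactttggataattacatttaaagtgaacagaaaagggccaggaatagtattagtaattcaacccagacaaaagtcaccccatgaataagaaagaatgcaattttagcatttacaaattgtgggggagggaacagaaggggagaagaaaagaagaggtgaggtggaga
ZFP42: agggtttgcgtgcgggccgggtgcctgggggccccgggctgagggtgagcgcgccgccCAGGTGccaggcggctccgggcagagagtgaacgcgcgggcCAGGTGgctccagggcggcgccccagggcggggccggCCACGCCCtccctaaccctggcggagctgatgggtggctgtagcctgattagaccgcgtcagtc
All 4 motifs were searched on both strands. The E-box of SNAI1, spelled CAGGTG, was found in 20.6% of 35116 windows and in 1 of the 7, that of ZFP42, beginning 192 and 151 bases before the start. The SOX core, spelled CATTGT, was found in 10.8% of windows and in 1 of the 7, that of NANOG. The octamer core bound by POU5F1, spelled ATGCAAA, was found in 4.46% of windows and in those of NANOG and SOX2. In NANOG the octamer and SOX cores, both on the minus strand, began 120 and 112 bases before the start and were separated by a single base. A KLF motif, spelled GGGNGTGG, was found in 17.2% of windows and in those of DPPA2, ZFP42 and DNMT3B. The DPPA4 and KLF4 windows held no match, which says only that these letters are not in these windows. A match is a description of sequence and not a measured binding site.

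At the level of the whole series, FPKM summed to between 603399 and 633851 per library. Absolute depth is unknown, and relative to WT of the same table it was estimated at 0.876 to 1.11. SNAI1 mRNA was 36.4 to 37.1 FPKM in WT and 47.8 to 68.6 in the libraries labelled knockout. A frameshift allele can leave its transcript in place, so the mRNA does not check the labels. Differences are given on the log2(FPKM + 1) scale, which understates the change of low genes, from limma with the table as a term, with p adjusted by the Benjamini-Hochberg method over 13909 genes whose mean FPKM was at least 1. Both knockout groups were set against the same WT libraries, so the comparisons are not independent of each other.

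To ask whether the pluripotency genes differed with SNAI1 deletion at this stage, their levels were compared within each table. POU5F1, NANOG and DPPA4 were higher than WT in both knockout groups, SOX2, not called, and DPPA2, too low to test, were higher in all 4 knockout libraries, LIN28A, ZFP42 and DNMT3B lay within 1.16-fold of WT, PRDM14 lay on both sides of WT, and KLF4 was lower in all 4 libraries without a call. Of the 10 genes, 9 passed the filter. For both knockout groups against WT, 3 of these 9 were called higher (33.3%), 0 lower, and 6 were not called, where 31.3% of all genes tested were called in either direction, 15.8% higher and 15.4% lower. The same genes, POU5F1, NANOG and DPPA4, were called for SNAI1_KO_1 alone and for SNAI1_KO_2 alone, against 23.9% and 25.5% of all genes. For both groups together the share called in either direction was thus near that of all genes. Of the tested genes, 6 of 9 were above WT of the same table in all 4 knockout libraries, against 26.2% of all genes tested, and 1 was below in all 4, against 35.1%. The 6 include SOX2, which passed the filter through the knockout libraries alone, so that its place among them was favoured in advance. DPPA2, also above WT in all 4, failed the filter and cannot be set against these shares. The median log2 difference was 0.14 over the 9 genes, 0.12 without SOX2, and -0.05 over all genes tested. These are bulk libraries, in which a different number of pluripotent cells and a different amount of RNA per cell cannot be told apart.

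**Figure D1:**
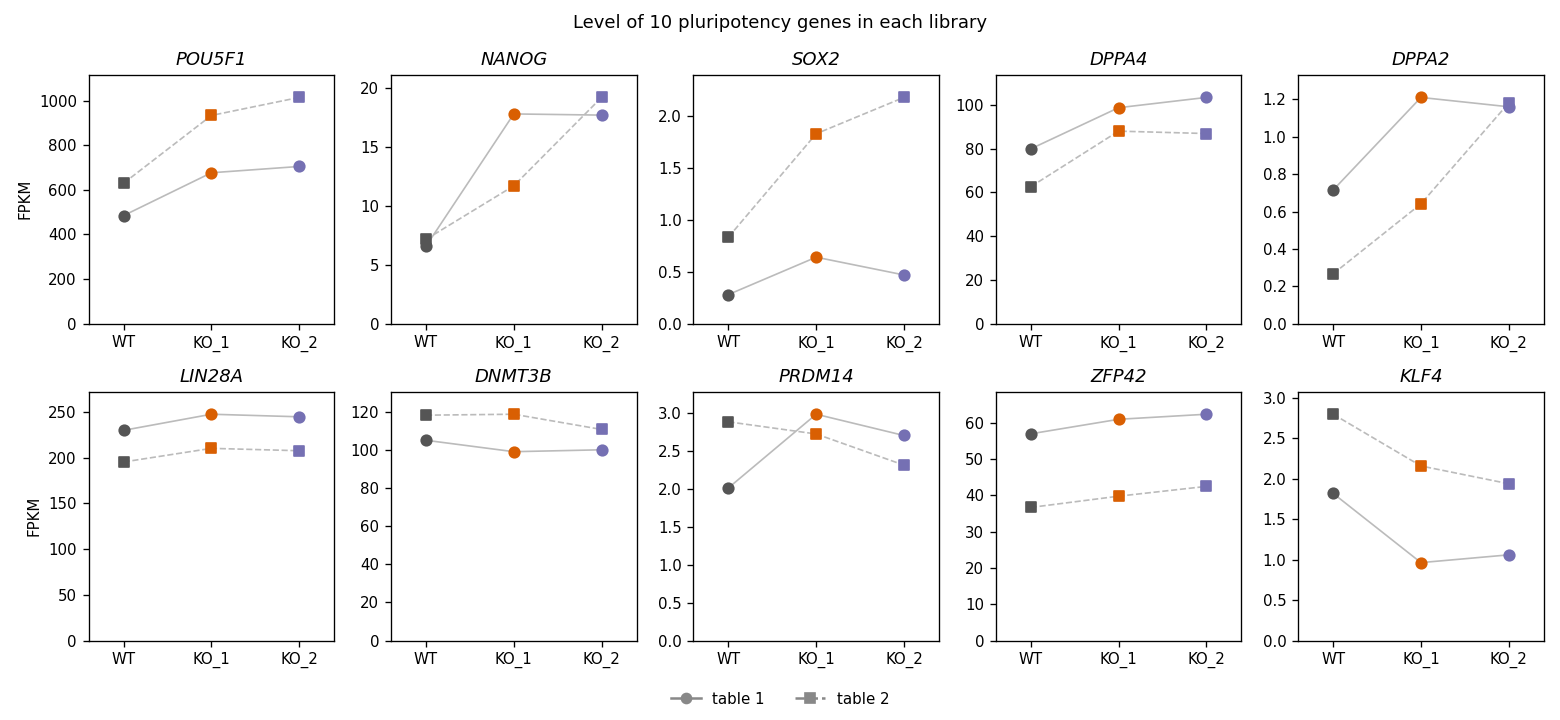
Level of each gene (y axis, FPKM from 0) in WT and the groups SNAI1_KO_1 and SNAI1_KO_2 (x axis), with circles and solid lines for the first table and squares and dashed lines for the second; each point is 1 library. POU5F1, NANOG and DPPA4 lie above WT in both tables, and the offset between tables is largest in proportion for SOX2.

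POU5F1, also called OCT4, was the most abundant of the 10 in every library. In the first table POU5F1 was 484.8 FPKM in WT, 676.6 for SNAI1_KO_1 and 704.8 for SNAI1_KO_2, and in the second it was 629.9, 933.4 and 1014 in the same order. The knockout libraries lay above both WT libraries, and the lowest of them, 676.6, was above the highest WT value, 629.9. The fold over WT of the same table was 1.40 and 1.45 in the first table, then 1.48 and 1.61 in the second. POU5F1 rose by 0.57 ± 0.042 (SE) on the log2 scale over both groups (adjusted p = 0.000857 by limma), by 0.52 in SNAI1_KO_1 (adjusted p = 0.00235) and by 0.61 in SNAI1_KO_2 (adjusted p = 0.00139). By FPKM its rank among all symbols moved from 163 to 139 and 136 in the first table and from 138 to 94 and 86 in the second. The call was kept on leaving out each of the 6 libraries in turn. Without the table term it was lost, with adjusted p between 0.243 and 0.43 for the 3 contrasts.

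NANOG, the homeobox factor known to vary between single pluripotent cells, was far below POU5F1. It was 6.58 FPKM in WT, 17.8 for SNAI1_KO_1 and 17.7 for SNAI1_KO_2 of the first table, followed by 7.16, 11.7 and 19.2 in the second. WT values lay close together, at 6.87 ± 0.41 (SD, n = 2), and all knockout values were above them. The SNAI1_KO_1 library of the second table stood below the other 3 knockout libraries, with a fold of 1.63 against 2.68 to 2.71. NANOG rose by 1.14 ± 0.16 on the log2 scale over both groups (adjusted p = 0.00634 by limma), by 0.97 in SNAI1_KO_1 (adjusted p = 0.0203) and by 1.31 in SNAI1_KO_2 (adjusted p = 0.008). The call for both groups was lost when WT of the first table was left out (adjusted p = 0.0777 by limma) and when no filter was applied (adjusted p = 0.065), and it was the only one of the 3 kept without the table term. For SNAI1_KO_1 it fell to 0.635 without that group's library of the first table (adjusted p = 0.073 by limma), and it was also lost without WT of either table (adjusted p = 0.133 and 0.0775) and without the table term (adjusted p = 0.0854). For SNAI1_KO_2 it was lost without WT of the first table (adjusted p = 0.072 by limma) and without that group's library of the second (adjusted p = 0.0797).

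SOX2, the partner of POU5F1 on composite DNA sites and a factor of the neural lineage, was the lowest of the 10 in the first table. SOX2 was 0.281 FPKM in WT, 0.641 for SNAI1_KO_1 and 0.470 for SNAI1_KO_2 of the first table, followed by 0.834, 1.83 and 2.18 in the second. Within each table both knockout libraries were above WT, by 1.67- to 2.61-fold. Across tables the groups overlapped, since WT of the second table was above both knockout libraries of the first. The log2 difference over both groups was 0.49 ± 0.18, with a 95% interval of 0.03 to 0.96 before adjustment, and was not called (adjusted p = 0.0992 by limma). The difference was 0.278 without WT of the second table and 0.709 without WT of the first, and 0.968 with a pseudocount of 0.1 and 0.093 with one of 10. SOX2 had a mean of 0.557 FPKM in WT and 1.28 in the knockout libraries, so it passed the filter through the knockout libraries alone. It was 2.97, 2.85 and 4.63 times as high in the second table as in the first, in the order WT, SNAI1_KO_1 and SNAI1_KO_2, each above any of its folds between groups within a table.

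Among the genes around the core, DPPA4 was called and its partner DPPA2 was too low to test. DPPA4 was 79.9 FPKM in WT, 98.7 for SNAI1_KO_1 and 103.4 for SNAI1_KO_2 of the first table, followed by 62.6, 88.0 and 86.9 in the second. Every knockout library was above both WT libraries, by 1.23- to 1.41-fold within a table. DPPA4 rose by 0.41 ± 0.056 on the log2 scale over both groups (adjusted p = 0.00577 by limma), by 0.39 in SNAI1_KO_1 (adjusted p = 0.0129) and by 0.42 in SNAI1_KO_2 (adjusted p = 0.00993). When WT of the second table was left out the call for both groups was lost (adjusted p = 0.0564 by limma), as it was without the table term (adjusted p = 0.236). For a single knockout group it was lost without WT of the second table or without either library of that group, with adjusted p between 0.0569 and 0.0926 by limma. DPPA2 was 0.715 FPKM in WT, 1.21 for SNAI1_KO_1 and 1.16 for SNAI1_KO_2 of the first table, followed by 0.267, 0.641 and 1.18 in the second. Its mean over the 6 libraries, 0.862 FPKM, was just under the filter, and that of SOX2, 1.04, was just above it. With no filter, DPPA2 had a log2 difference of 0.46 ± 0.15 over both groups and was not called (adjusted p = 0.191 by limma over 30248 genes).

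None of the 3 zinc-finger genes was called, and their values lay on both sides of WT. ZFP42, also called REX1 and a widely used marker of undifferentiated cells, was 57.0 FPKM in WT, 61.0 for SNAI1_KO_1 and 62.4 for SNAI1_KO_2 of the first table, followed by 36.7, 39.8 and 42.5 in the second. Its log2 difference was 0.14 ± 0.053 (95% interval 0.01 to 0.27 before adjustment, adjusted p = 0.105 by limma), in a gene whose level was 0.643 to 0.681 times as high in the second table. PRDM14, which represses lineage genes in pluripotent cells, was 2.01 FPKM in WT, 2.98 for SNAI1_KO_1 and 2.70 for SNAI1_KO_2 of the first table, followed by 2.88, 2.72 and 2.31 in the second. It was above WT in the first table and below it in the second, with a log2 difference of 0.10 ± 0.16 (95% interval -0.30 to 0.50, adjusted p = 0.657 by limma). KLF4, a reprogramming factor that is high in naive and low in primed pluripotent cells, was 1.82 FPKM in WT, 0.964 for SNAI1_KO_1 and 1.06 for SNAI1_KO_2 of the first table, followed by 2.80, 2.16 and 1.94 in the second. KLF4 was the only one of the 10 below WT of the same table in all 4 knockout libraries, at 0.529 to 0.771 times WT. Its log2 difference was -0.40 ± 0.14 (95% interval -0.75 to -0.06 before adjustment) and was not called (adjusted p = 0.0781 by limma).

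LIN28A and DNMT3B, both abundant in every library, lay close to WT. LIN28A was 229.8 FPKM in WT, 247.4 for SNAI1_KO_1 and 244.6 for SNAI1_KO_2 of the first table, followed by 195.2, 210.1 and 207.5 in the second. The 4 within-table folds lay between 1.06 and 1.08, and the level of the second table was 0.848 to 0.849 times that of the first in every group. With a log2 difference of 0.10 ± 0.037 (95% interval 0 to 0.19) LIN28A was not called (adjusted p = 0.107 by limma). DNMT3B was 105.3 FPKM in WT, 99.3 for SNAI1_KO_1 and 100.3 for SNAI1_KO_2 of the first table, followed by 118.5, 119.0 and 111.0 in the second. The values of the groups overlapped, and the log2 difference of -0.06 ± 0.048 had a 95% interval of -0.18 to 0.06 (adjusted p = 0.387 by limma).

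**Figure D2:**
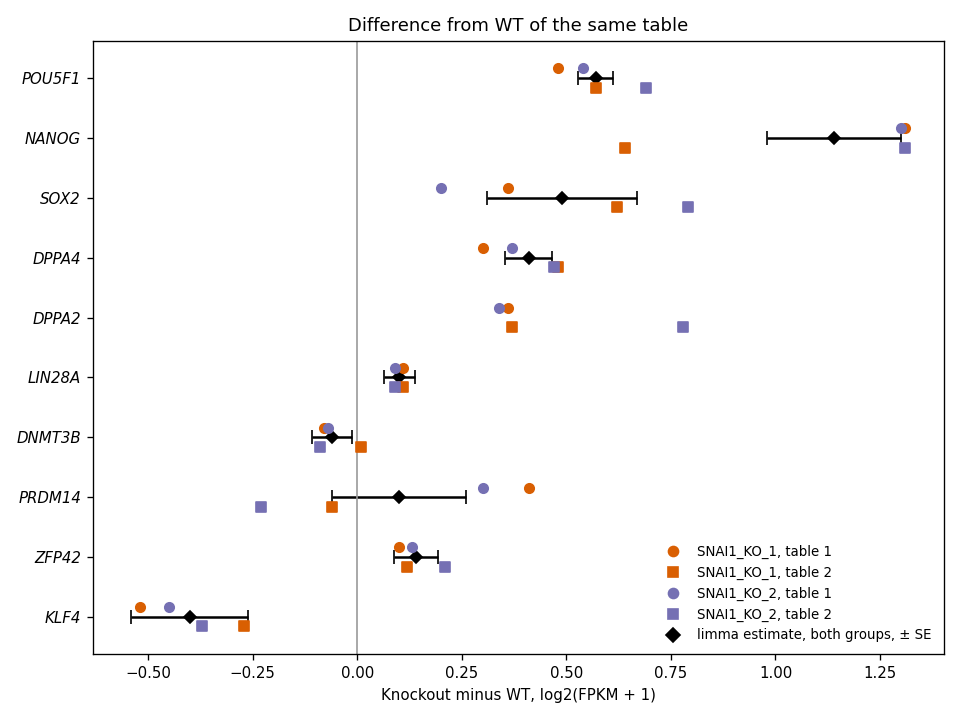
Difference from WT of the same table on the log2(FPKM + 1) scale (x axis) for each gene (y axis); coloured circles and squares are single knockout libraries of the first and second table, and black diamonds with bars are the limma estimate for both knockout groups ± SE. NANOG lies at 1.14, POU5F1 at 0.57 and DPPA4 at 0.41, KLF4 lies at -0.40, and DPPA2, which was not tested, has no diamond.

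The knockout groups were then compared with each other. None of the 9 tested genes was called (0), as was none of all genes (0%). Of the 13909 genes tested, 521 had an unadjusted p under 0.05 by limma, fewer than chance alone would give at that threshold. The median SE was 0.12 on the log2 scale. The interval of the difference, SNAI1_KO_2 minus SNAI1_KO_1, was -0.03 to 0.21 for POU5F1, -0.15 to 0.81 for NANOG and -0.14 to 0.19 for DPPA4. These intervals leave room for a difference in NANOG of the size seen between single libraries.

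Ranking the genes by FPKM, a scale per transcript length, gave the order POU5F1, LIN28A, DNMT3B, DPPA4, ZFP42 and NANOG, with PRDM14, KLF4, SOX2 and DPPA2 below, except that DPPA4 (103.4) was above DNMT3B (100.3) in the SNAI1_KO_2 library of the first table. Over the 6 libraries the ranges of DNMT3B and DPPA4 overlapped, as did those of PRDM14, KLF4, SOX2 and DPPA2 with their neighbours in the order. The 10 genes together summed to 968.3 FPKM in WT, 1206.7 for SNAI1_KO_1 and 1238.7 for SNAI1_KO_2 of the first table and to 1056.9, 1409.4 and 1489 in the second. POU5F1 alone made up 50.1% and 59.6% of this sum in WT and 56.1% to 68.1% in the knockout libraries.

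Because the ratio of a pair of genes within a library does not depend on how that library was scaled, each gene was also expressed relative to POU5F1. Since POU5F1 rose, a gene at an even level has a lower ratio in the knockout libraries. NANOG was 1.36% of POU5F1 in WT, 2.64% in SNAI1_KO_1 and 2.51% in SNAI1_KO_2 of the first table, followed by 1.14%, 1.25% and 1.90% in the second. LIN28A, itself 1.06 to 1.08 times WT while POU5F1 was 1.40 to 1.61 times WT, was at 47.4%, 36.6% and 34.7% in the first table, followed by 31.0%, 22.5% and 20.5% in the second. DNMT3B was 21.7%, 14.7% and 14.2% of POU5F1 in the first table, followed by 18.8%, 12.8% and 10.9% in the second. Relative to POU5F1, NANOG, SOX2 and DPPA2 were thus above WT of the same table in all 4 knockout libraries and DPPA4, LIN28A, ZFP42, DNMT3B and KLF4 were below it in all 4, while PRDM14 lay on both sides. The exact permutation of library labels within tables has 9 arrangements, so the smallest p it can give is 0.111. The ratios were not tested with a model and are given as values.

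**Figure D3:**
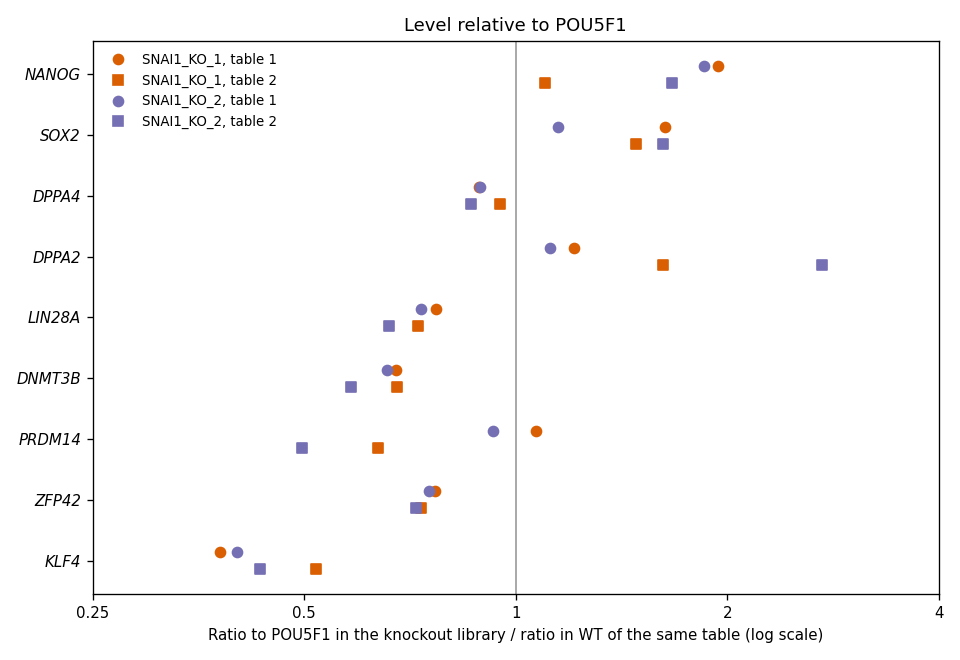
Ratio of each gene to POU5F1 in a knockout library divided by the same ratio in WT of that table (x axis, log scale; y axis, gene); points are single libraries, coloured by group, with circles for the first table and squares for the second. LIN28A lies between 0.66 and 0.771, DNMT3B between 0.582 and 0.678 and KLF4 between 0.379 and 0.52, whereas NANOG lies between 1.1 and 1.94.

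Near-identical copies could share reads with their parent genes, so every symbol made of a gene's name followed by P and a number was examined. Copies named in another way were not searched, so the sums below may leave copies out. The 6 copies of NANOG in the first table and the 10 in the second summed to 8.67% to 21.8% of NANOG itself. NANOGP1 was 0.454, 1.26 and 1.14 FPKM in WT, SNAI1_KO_1 and SNAI1_KO_2 of the first table, followed by 0.193, 1.35 and 1.15 in the second, and NANOGP8 was 0.708, 0.865 and 0.519 and then 0.428, 1.20 and 1.13. NANOGP1 was thus above WT in every knockout library, as NANOG was, and the other copies of NANOG were listed at 0 throughout. For POU5F1 the copies summed to 0.473% to 1.06% of the parent, led by POU5F1P3, which was 1.97, 2.46 and 2.67 FPKM in the first table, followed by 3.70, 6.46 and 7.33 in the second, and by POU5F1P4, at 0.667, 0.743 and 0.825 and then 1.81, 3.28 and 2.34. The other copies of POU5F1 found by this search did not exceed 0.213 FPKM. LIN28AP1 was 0, 0.908 and 0.359 FPKM in the first table, followed by 0.750, 0.471 and 0.236 in the second. LIN28AP2, listed only in the second table, was at 0.370 in WT and 0 in both knockout libraries, the copy of KLF4 did not exceed 0.0525 FPKM and the copies of DPPA2 were at 0. How the counting divided reads between NANOG and its copies was not stated, so the level of NANOG is uncertain to that extent.

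Next, 28 other genes of the human pluripotent state that passed the filter (of 30 listed) were examined. Of these, 12 (42.9%) were higher, 5 (17.9%) were lower and 11 were not called, against 15.8% higher and 15.4% lower among all genes tested, which are also the shares to set beside the counts of the lists that follow. The median log2 difference was 0.27, against -0.05 for all genes. ESRG, a long noncoding RNA from an endogenous retrovirus and abundant in undifferentiated human embryonic stem cells, had the largest rise. ESRG was 3.58 FPKM in WT, 62.3 for SNAI1_KO_1 and 66.3 for SNAI1_KO_2 of the first table, followed by 3.88, 85.9 and 111.7 in the second, a log2 difference of 4.09 ± 0.13 (adjusted p = 0.00018 by limma). FGF4, a growth factor gene with a well-known enhancer site for POU5F1 and SOX2, was 0.918, 6.65 and 7.92 FPKM and then 0.865, 10.5 and 9.08. FGF4 had a WT mean of 0.891 FPKM and passed the filter through the knockout libraries alone, as did UTF1, which was not called. Without these genes, 11 of 26 were higher and 5 lower, with a median of 0.26. ESRG and FGF4 were both several-fold above WT in every knockout library. The largest falls were those of GDF3, a ligand of the Nodal pathway, and MYCN. GDF3 was 7.13, 1.12 and 0.842 FPKM in the first table, followed by 4.55, 1.44 and 0.968 in the second, and its log2 difference was -1.69 ± 0.19 (adjusted p = 0.00316 by limma). MYCN was 26.6, 11.7 and 12.3 FPKM in the first table, followed by 26.5, 15.1 and 15.5 in the second, with a log2 difference of -0.92 ± 0.098 (adjusted p = 0.00249 by limma). Called genes of the pluripotent state therefore lay on both sides of WT.

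Genes linked to the naive state of pluripotency, the earlier state of the preimplantation embryo, were mostly too low to test. Of 16 listed, 15 were found and 5 passed the filter, of which 2 were higher, 2 lower and 1 not called (median -0.02). SUSD2, a surface protein, and KLF5, a factor close to KLF4, rose by 1.09 and 0.40, and TBX3 and NR0B1 had log2 differences of -0.68 and -0.67 (adjusted p = 0.00302, 0.029, 0.00397 and 0.0106 by limma). KLF17 was at 0 in all 6 libraries, one of 2 listed genes for which this was so. Over the KLF family, 11 of 16 genes were tested, 3 higher, 3 lower and 5 not called (median -0.09). KLF10, which responds to transforming growth factor beta, rose by 0.86 and KLF5 by 0.40, while KLF15 had a log2 difference of -1.03 (adjusted p = 0.00313, 0.029 and 0.00919 by limma). KLF1, the erythroid factor, passed the filter through WT alone, at a mean of 3.69 FPKM in WT and 0.337 in the knockout libraries, and without it 3 of 10 were higher and 2 lower. Of the POU family apart from POU5F1, 13 genes were listed, 3 were tested and 0 were called in the contrast of both groups.

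Relatives of SOX2 were split. Of 8 listed, 5 passed the filter, 2 were higher, 2 lower and 1 not called (median 0.04). SOX3, the closest relative of SOX2 with SOX1, was 0.068 FPKM in WT, 2.29 for SNAI1_KO_1 and 2.37 for SNAI1_KO_2 of the first table, followed by 0.221, 4.21 and 9.67 in the second. It passed the filter through the knockout libraries alone and so had to differ, and without it 1 of 4 was higher and 2 lower (median -0.36). SOX15 rose by 1.14, and SOX12 and SOX11 had log2 differences of -0.98 and -0.76 (adjusted p = 0.00933, 0.000643 and 0.00359 by limma).

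The pathways in which DNMT3B, PRDM14 and LIN28A work were examined in the same way. In the DNA methylation machinery, 1 of 15 tested genes was higher, 4 were lower and 10 were not called (median -0.13). TDG, a glycosylase that removes oxidized methylcytosine, rose by 0.18, and TET1, which oxidizes methylcytosine, and TRIM28, a corepressor, had log2 differences of -0.41 and -0.39 (adjusted p = 0.049, 0.03 and 0.00268 by limma). DNMT3A, the other de novo methyltransferase, had a log2 difference of 0.01 ± 0.059 (adjusted p = 0.9 by limma), and DNMT3L, their cofactor, was not tested, at 0.038 and 0.209 FPKM in WT and 0.357 to 0.527 in the knockout libraries. Among partners of PRDM14 and the Polycomb repressive complex, which methylates histone H3, 1 of 11 was higher, 3 were lower and 7 were not called (median -0.07). PHF19, an accessory subunit, rose by 0.97, and EED, a core subunit, and CBFA2T2, the corepressor that binds PRDM14, had log2 differences of -0.49 and -0.48 (adjusted p = 0.0111, 0.0144 and 0.0141 by limma). In the LIN28 and let-7 pathway, 1 of 15 was higher, 2 were lower and 12 were not called (median -0.03). ARID3B rose by 0.33, and TUT4, the uridylyltransferase that LIN28A recruits to let-7 precursors, and IGF2BP1, an RNA-binding target of let-7, had log2 differences of -0.73 and -0.34 (adjusted p = 0.0169, 0.00281 and 0.028 by limma). LIN28B, the paralog of LIN28A, had a log2 difference of -0.10 ± 0.076 and was not called (adjusted p = 0.377 by limma).

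**Figure D4:**
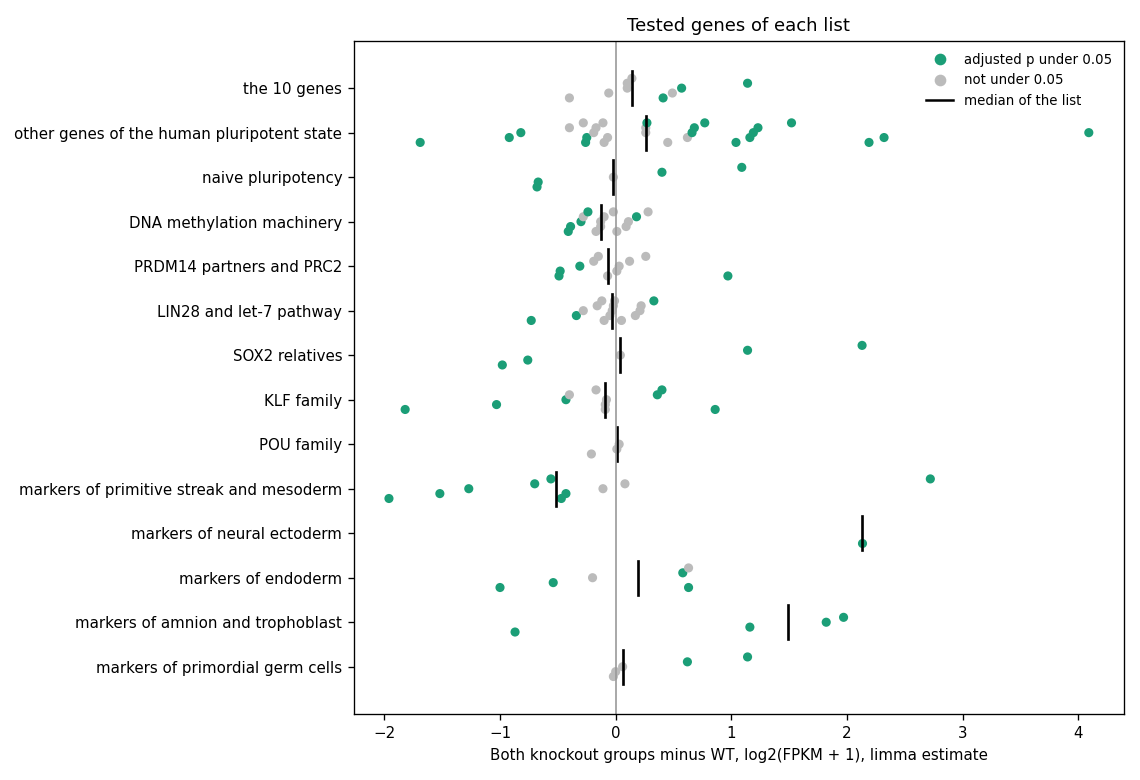
Difference of both knockout groups from WT on the log2(FPKM + 1) scale (x axis, limma estimate) for each tested gene of each list (y axis); green points passed the threshold, grey points did not, and black bars mark the median of a list. The 28 other genes of the pluripotent state spread from -1.69 to 4.09 around a median of 0.27, and the markers of primitive streak and mesoderm around -0.51.

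Markers of other cell types that these cultures could hold were followed beside the pluripotency genes, and their part in the differences above was not tested. Of 10 genes of primitive streak and mesoderm, 1 (10%) was higher, 7 (70%) were lower and 2 were not called, against 15.8% and 15.4% of all genes (median -0.51), and their summed level was 1712.3 and 1643.3 FPKM in WT and 1111.4 to 1199.5 in the knockout libraries. TBXT, the brachyury gene and a marker of the primitive streak, was the single rise, at 17.8, 129.6 and 143.3 FPKM in the first table, followed by 38.7, 217.6 and 251.3 in the second (log2 difference 2.72, adjusted p = 0.000142 by limma). HAND1 and MESP2, factors of the mesoderm that follows, had log2 differences of -1.96 and -1.52 (adjusted p = 0.000143 and 0.0012 by limma). MIXL1 and EOMES of this list were present in every library. MIXL1 was not called, at 388.3 to 461.6 FPKM over the 6 libraries, whereas EOMES was 194.4 and 204.3 FPKM in WT and 103.8 to 132.2 in the knockout libraries (log2 difference -0.70, adjusted p = 0.0041 by limma).

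Of the 8 endoderm genes, 2 of 6 tested were higher, 2 lower and 2 not called, with a sum of 3340.8 and 2827.3 FPKM in WT and 1276.4 to 1933 in the knockout libraries, most of it CER1. The fall of the sum lay in CER1, at 3262 and 2550 FPKM in WT and 976.9 to 1797 in the knockout libraries. SOX17, next in level, was above WT of the same table in every knockout library, and FOXA2 was below it. SOX17 rose by 0.63, and CER1 and FOXA2 had log2 differences of -1 and -0.54 (adjusted p = 0.0319, 0.00314 and 0.0114 by limma). The other gene called higher, FOXA1, passed the filter through the knockout libraries alone, at a mean of 0.661 FPKM in WT and 1.42 in the knockout libraries. Neural ectoderm genes summed to 2.17 and 3.31 FPKM in WT and 3.01 to 10.2 in the knockout libraries. The rise of this sum lay in SOX3, at 0.068 and 0.221 FPKM in WT and 2.29 to 9.67 in the knockout libraries. PAX6, below the filter and not tested, went the other way, at 1.285 and 2.382 FPKM in WT and 0.024 to 0.184 in the knockout libraries. Only SOX3 of these 10 was tested, through the knockout libraries alone, and HES5 was at 0 in all 6 libraries. Of the 8 amnion and trophoblast genes, 4 were tested, 3 higher and 1 lower, with sums of 29.4 and 45.8 FPKM in WT and 37.4 to 61.3 in the knockout libraries, which overlap. One of the 3, GABRP, passed the filter through the knockout libraries alone, at a mean of 0.0955 FPKM in WT and 1.48 in the knockout libraries, which leaves 2 of 3 higher. CDX2 and TFAP2A rose by 1.97 and 1.82 and GATA3 had a log2 difference of -0.87 (adjusted p = 0.00568, 0.000584 and 0.00281 by limma).

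Primordial germ cells also express POU5F1, NANOG and PRDM14, and some of their markers were at levels like that of NANOG. Of 9 genes, 5 were tested, 2 were higher, 0 lower and 3 not called (median 0.06), with sums of 28.4 and 52.0 FPKM in WT and 35.9 to 61.5 in the knockout libraries, which overlap. SOX15 and KIT rose by 1.14 and 0.62 (adjusted p = 0.00933 and 0.0102 by limma). The defining germ-cell genes NANOS3, PRDM1 and TFAP2C were 6.30 to 18.1, 5.99 to 9.5 and 7.09 to 13.9 FPKM over the 6 libraries and were not called, with log2 differences of 0.06, 0 and -0.02, and DDX4 and DAZL did not exceed 0.055 and 0.11 FPKM. DPPA3, below the filter and not tested, went down, at 1.08 and 0.959 FPKM in WT and 0.0414 to 0.107 in the knockout libraries. DND1, also below the filter, was above WT in the first table and below it in the second.

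Finally, the tested genes whose 4 within-table differences lay nearest to those of each called gene were found by Euclidean distance on the log2 scale. POU5F1 was nearest to C20orf204 (distance 0.0425) and CLDN10, a claudin of tight junctions (0.0444). NANOG had no neighbour as close, with SLC1A4, an amino acid transporter, at 0.294 and GPR17, a G protein-coupled receptor, at 0.306. DPPA4 was nearest to APP, the amyloid precursor protein (0.0621), and PANX2, a pannexin (0.0678). These distances rest on 4 differences that share WT libraries, and they describe the pattern alone.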

How the data were processed

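RNA-seq was made from H1 cells at day 2 with a TruSeq kit from 2 ug of total RNA per library, 1 library of each of 3 groups in each of 2 tables. The authors deposited FPKM per gene symbol, and the unit is named only in the second table. The submitters' processing notes name BWA, Bowtie and RSEM, without versions or roles, and the build hg19. Symbols listed more than once (94 and 340) were left out. Columns name a group but no replicate, and per-sample columns of no sample numbered 0. limma 3.58.1 (R 4.3.3; lmFit, contrasts.fit, eBayes with trend) was fitted to log2(FPKM + 1), pseudocount 1, with 3 groups and a table term, for genes of mean FPKM at least 1, two-sided, Benjamini-Hochberg, threshold 0.05, with 2 residual and 3.34 prior degrees of freedom. Table differences of the groups correlated across genes (r = 0.616, 0.666 and 0.676), and libraries of 1 table were treated as paired. The first table lists 38100 gene rows and the second 58324. Offsets from annotation or counting and offsets between samples thus cannot be told apart, and the correlation alone does not show pairing.

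The 10 genes, the lists and the rules for naming were chosen with earlier results of these data known. All 10 genes are named in every library, and from each other list the called genes with the 2 largest rises and 2 largest falls, beside close relatives of the 10, the near copies and the 2 nearest genes by distance. DPPA3, SLC2A3, SLC2A14, FOXJ2, CLEC4C, NANOGNB, C3AR1, NECTIN3, MIXL1, EOMES, PAX6, HES5, UTF1, GABRP, NANOS3, PRDM1, TFAP2C, DND1, DDX4 and DAZL were named after their values were seen. On values simulated for both knockout groups against WT (13909 genes, 200 of them changed), 64% of genes changed by log2 1 and 94% of those changed by log2 2 were recovered, and 2.47% of calls were unchanged genes. The simulated share of changed genes was far below the 31.3% called in the data, and the noise was independent between libraries. These percentages therefore check the procedure and do not give the recovery in the data. FPKM carries no read totals, so no counting interval is given. Coordinates are those of RefSeq (GRCh38.p14), not of the deposited build. Alternatives were no replicate block, pseudocounts of 0.1 and 10, no filter and a mean of at least 5, quantile, median-ratio and equal-mean scaling, no variance trend, both knockout groups as 1 and leaving out each library. Figures were drawn with matplotlib.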

Additional observations from a re-analysis of the deposited data

How the results depend on the processing

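Of 405 alternative values of 27 results, 370 had the same sign and stayed on their side of the threshold. Another 25 lost the call, 3 gained one and 7 changed sign, and the cause of these changes was not tested. All 25 losses fell on POU5F1, NANOG and DPPA4. The other genes had no call to lose and make up most of the 370, which therefore does not measure how stable the calls were. With no replicate block, none of the genes (0) passed for SNAI1_KO_1 and 1, NANOG, passed both for SNAI1_KO_2 and for both groups, and 1065 in place of 4348 genes were called for both groups, of which 71.9% in place of 50.6% were higher. With no filter, 1 was called for each knockout group (POU5F1), 2 for both groups, and 2139 genes in all. On leaving out each library in turn, the number called ran from 1 to 3 for SNAI1_KO_1, from 1 to 3 for SNAI1_KO_2 and from 2 to 3 for both groups. LIN28A was called for both groups only under median-ratio scaling (0.144, adjusted p = 0.0401 by limma), and KLF4 only with no variance trend (-0.402, adjusted p = 0.0355) and with both knockout groups as 1 (adjusted p = 0.0478). POU5F1, NANOG and DPPA4 were called in all 3 contrasts with WT under quantile, median-ratio and equal-mean scaling. Signs changed in genes that were not called. PRDM14 in SNAI1_KO_2 was -0.038 under quantile normalization, and DNMT3B in SNAI1_KO_1 was 0.007 under median-ratio scaling. On leaving out each library, PRDM14 (SNAI1_KO_1) from -0.08 to 0.422, PRDM14 (SNAI1_KO_2) from -0.216 to 0.285, PRDM14 (both knockout groups) from -0.148 to 0.354 and DNMT3B (SNAI1_KO_1) from -0.09 to 0.012 ran across 0, PRDM14 over both groups being lowest without WT of the first table. Scaling left the median of all genes between -0.078 and -0.006, and the share of calls that were higher was 59.1% under median-ratio scaling and 44.9% with equal means. Low levels limit what can be said of SOX2, DPPA2, KLF4 and PRDM14.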

Other observations

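The genes that lie next to NANOG and DPPA4 on the chromosome, up to 4 places away, were examined after the values above were seen. On the RefSeq gene order, protein-coding neighbours of NANOG on one side are GDF3 and DPPA3 (4 and 3 places away) and on the other SLC2A14 and SLC2A3 (1 and 2 places away). GDF3 fell, as given above. DPPA3, also called STELLA, was 1.08 FPKM in WT, 0.107 for SNAI1_KO_1 and 0.0594 for SNAI1_KO_2 of the first table, followed by 0.959, 0.0419 and 0.0414 in the second, and its mean was below the filter. SLC2A3, the glucose transporter GLUT3, was 193 FPKM in WT, 708 for SNAI1_KO_1 and 699 for SNAI1_KO_2 of the first table, followed by 277, 822 and 880 in the second, and rose by 1.74 ± 0.065 on the log2 scale (adjusted p = 0.000183 by limma). SLC2A14, a near copy of SLC2A3 that could share its reads, was 1.57, 5.71 and 5.24 FPKM and then 3.18, 11.4 and 10.9, and rose by 1.44 ± 0.10 (adjusted p = 0.000777 by limma). FOXJ2, 3 places away on that side, was not called (log2 difference 0.09 ± 0.092, adjusted p = 0.508 by limma), and CLEC4C, NANOGNB and C3AR1 did not exceed 0.429 FPKM. Beside DPPA4, NECTIN3 was 8.93, 4.90 and 5.66 FPKM in WT, SNAI1_KO_1 and SNAI1_KO_2 of the first table, followed by 8.02, 4.66 and 4.88 in the second, with a log2 difference of -0.65 ± 0.092 (adjusted p = 0.00593 by limma). None of the other neighbours of DPPA4, DPPA2 among them, passed the filter, and those of POU5F1 were not examined.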
